A study of Mus musculus with 232 samples.

Results

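CA3 pyramidal neurons are here the cells that the authors' deposited cell annotation assigns to the cluster CA3-Pyr, 532 of the 24185 cells of a single-cell RNA study of the mouse dentate gyrus. RNA was counted as unique molecular identifiers (UMIs), each standing for 1 captured transcript, over 27933 genes on the 10X Genomics Chromium system. The dentate gyrus had been microdissected from brain slices of 300 µm and dissociated with papain. CA3-Pyr cells numbered 201 at P18, 179 at P19, 106 at P23, 12 at P120, 33 at P132 and 1 at P5, where P is the day after birth. No CA3-Pyr cell was among the 2285 cells of E16.5, which allows a share of up to 0.131%, or among the 4779 cells of P0, which allows up to 0.0628%. The P18 and P23 animals were CD-1 males and the P19 animals C57Bl/6 females, with no transgene named for either line. The E16.5, P0 and P5 animals were also CD-1, of unknown sex. The P120 cells were from 2 males and 1 female and the P132 cells from 3 males and 1 female of the line hGFAP-GFP, which carries green fluorescent protein under a human GFAP promoter, and were sorted for that protein. That promoter is known for activity in astrocytes and radial glia, so the adult neurons are those that came through a sort aimed at GFP. Animals of 1 age were pooled, so the age is the unit of replication, the juvenile ages (P18, P19, P23) number 3 and the adult ages (P120, P132) number 2, and p-values measure the spread between these pools.

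CA3 pyramidal neurons are glutamatergic neurons of the hippocampus whose layer ends between the blades of the dentate gyrus. They receive the mossy fibres of dentate granule cells at large synapses, excite each other through recurrent collaterals and send Schaffer collaterals to CA1. Of the genes given as markers of these cells, Neurod6 encodes a basic helix-loop-helix transcription factor of pyramidal neurons, Elavl2 a neuronal RNA-binding protein, Nr3c2 the mineralocorticoid receptor and Mndal a member of the interferon-inducible Ifi200 family. In GRCm38 coordinates Neurod6 lies at chr6:55677822-55681263 on the minus strand, Elavl2 at chr4:91250763-91400785 on the minus strand, Nr3c2 at chr8:76899442-77245012 on the plus strand and Mndal at chr1:173849126-173942491 on the minus strand.

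The 250 bases upstream of the annotated start are shown for 3 genes on which the description below turns. Neurod6 is the marker with the highest ratio to granule cells, Sv2b (a synaptic vesicle protein) had the largest ratio to every other cluster, and Wfs1 (a membrane protein of the endoplasmic reticulum) marked a subset of the cells. The windows are Neurod6 at chr6:55681264-55681513, Sv2b at chr7:75309263-75309512 (1 of its 4 annotated windows) and Wfs1 at chr5:36988983-36989232, all on the minus strand of GRCm38.p6, from RefSeq. Capitals mark CAGNTG on either strand (CANCTG on the other), an E-box form that basic helix-loop-helix factors are known to bind.
Neurod6: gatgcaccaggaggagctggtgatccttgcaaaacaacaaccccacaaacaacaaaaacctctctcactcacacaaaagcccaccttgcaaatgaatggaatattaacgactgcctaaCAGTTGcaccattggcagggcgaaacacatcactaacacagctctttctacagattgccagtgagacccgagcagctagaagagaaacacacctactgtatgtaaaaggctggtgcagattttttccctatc
Sv2b: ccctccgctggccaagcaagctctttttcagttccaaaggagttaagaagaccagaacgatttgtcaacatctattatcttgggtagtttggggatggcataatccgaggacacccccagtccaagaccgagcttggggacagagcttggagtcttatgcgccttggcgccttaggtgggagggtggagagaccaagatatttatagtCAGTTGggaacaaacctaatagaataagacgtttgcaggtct
Wfs1: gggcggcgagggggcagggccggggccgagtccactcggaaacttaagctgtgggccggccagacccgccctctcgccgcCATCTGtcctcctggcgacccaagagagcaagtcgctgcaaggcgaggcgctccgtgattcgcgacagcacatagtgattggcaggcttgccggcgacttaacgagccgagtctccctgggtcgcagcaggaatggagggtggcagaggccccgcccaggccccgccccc
Each window shown held 1 match. The windows of Nr3c2, Spock1, Bok and Cpne4, not shown here, held 0 matches, as did some of the other Sv2b windows. The motif is common, since 14723 of 32851 promoter windows of this length held it (44.8%). Of the 22 genes described below as higher in CA3-Pyr than in every other cluster, 18 had a window and 14 of these had at least 1 match (77.8%), beside 13019 of 27025 genes (48.2%). A gene with more windows has more room for a match. By window, 19 of the 29 windows of these genes held it (65.5%), beside the 44.8% of all windows. The genes are few and were chosen from these data, and no test was made. A match is a run of letters and not a measured binding site.

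CA3-Pyr cells made up 7.41% of the P18 cells (exact 95% interval 6.45 to 8.46%), 8.60% of the P19 cells (7.43 to 9.89%) and 3.92% of the P23 cells (3.22 to 4.73%). In the sorted adult samples the share was 0.880% at P120 (0.456 to 1.53%) and 0.862% at P132 (0.594 to 1.21%). The intervals cover counting error only. Only the adult cells were sorted, so sort and age cannot be told apart in these shares, and no test was made. Summed UMIs per age were 1212513 at P18, 1320649 at P19, 955520 at P23, 82865 at P120 and 222196 at P132, and median UMIs per cell ran from 4872 to 8718. Granule cells (clusters GC-juv and GC-adult, here GC) were shallower, with medians of 1988 to 5680 UMIs. No barcode was shared between CA3-Pyr cells of different libraries, and 13 of the 532 were also held by some cell of another library.

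The label was checked against the markers given for it and against lists of subfield genes. Levels are given as CPM, the UMIs of a gene per 1000000 UMIs summed over the CA3-Pyr cells of an age, in the order P18, P19, P23, P120, P132. Neurod6 stood at 861, 737, 558, 531 and 608 CPM, and in GC at no more than 15.5 CPM. It was higher in CA3-Pyr than in each other cluster of 20 or more cells at P18, P19, P120 and P132, and at P23 it was below Immature-Pyr (1304 CPM). Elavl2 stood at 450, 286, 136, 374 and 342 CPM, against 6.98 to 10.7 CPM in GC. Elavl2 was not particular to these cells, and another cluster was higher at each age. The highest was GABA at P18 (633 CPM), P23 (653 CPM) and P132 (736 CPM). At P19 it was nIPC, the neuronal intermediate progenitors (580 CPM), and at P120 Neuroblast (550.5 CPM). Nr3c2 stood at 202, 151, 82.7, 96.5 and 153 CPM, and GC at 164, 184, 117, 53.4 and 123 CPM, so the classes overlapped. Mndal stood at 27.2, 61.3, 5.23, 12.1 and 36.0 CPM, and in GC at no more than 2.42 CPM. It was highest in CA3-Pyr at P18 only, with Neuroblast at 106 CPM at P19 and 67.6 CPM at P120, Endothelial at 30.9 CPM at P23 and Immature-GC at 126 CPM at P132. Its values are uncertain, because 28.7% of its stretches of 31 bases also occur in another annotated gene. Ifi203, an overlapping member of the family, had 37.1, 53.0, 17.8, 60.3 and 13.5 CPM, and 4 of the 10 Ifi200 genes listed had no UMI in CA3-Pyr at any age.

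The listed CA3 genes were present and so were those of CA1. Of 8 CA3 genes, 6 passed the level filter of 50 CPM and 5 of these were 2-fold or more above GC at each juvenile age. They were Spock1 (a testican proteoglycan), Pvrl3 (nectin-3, an adhesion molecule of mossy fibre contacts), Bok (a BCL2 family member), Grik4 (a kainate receptor subunit) and Cpne4 (a copine). Nrip3 passed the filter too and was counted in neither direction. Spock1 had 511, 463, 206, 1134 and 369 CPM, against at most 10.4 CPM in GC, although juvenile GABA neurons held 255 to 590 CPM. Of 7 CA1 genes, Wfs1, Mpped1, Fibcd1, Pou3f1 (a POU transcription factor) and Man1a passed the filter and were 2-fold or more above GC at each juvenile age. Wfs1 had 165, 119, 201, 338 and 58.5 CPM, against 8.31 to 10.7 CPM in GC. The sum over the CA1 list was 591 to 693 CPM across the 5 ages, and 24.9 to 32.6 CPM in GC. The sum over the CA3 list was 1011 to 2607 CPM, and 157 to 348 CPM in GC. Of the CA2 genes, Pcp4 (a calmodulin regulator) was lower than in GC, with 619, 351, 354, 531 and 995 CPM against 2250 to 3169 CPM. Of 7 mossy cell genes, Drd2 and Glp1r had no UMI in any CA3-Pyr sum, while Calb2 (calretinin) and Ajap1 passed the filter and exceeded GC.

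Some lists of other cell types were low in the sums and others were not. The immature neuron list summed to 253 to 663.5 CPM, against 426 to 742 CPM in GC. The granule cell list summed to 36.2 to 388 CPM in CA3-Pyr and 870 to 1645 CPM in GC. The GABA neuron list summed to 22.5 to 51.3 CPM, with Gad1 at 0 in both adult sums. The oligodendrocyte list summed to 108 to 548 CPM against 234 to 394 CPM in GC. The highest CA3-Pyr value was at P18, where GC had 288 CPM. The astrocyte list summed to 746 to 1354 CPM, against 348 to 544 CPM in GC. Slc1a2, a glutamate transporter, gave 645 to 1307 CPM of the CA3-Pyr sums. Slc1a2 also had 248 to 395 CPM in GC, and the part of these RNAs in the results that follow was not tested.

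**Figure D1:**
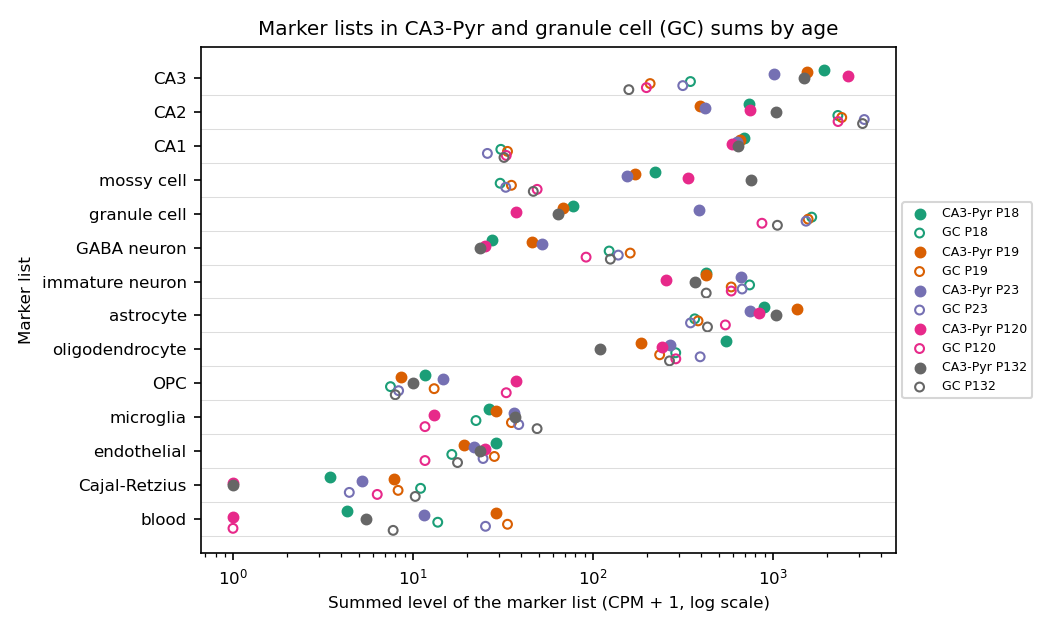
Summed level of each list of marker genes (CPM + 1, log scale) in the CA3-Pyr cells (filled) and granule cells (open) of each age, 1 point per age. The CA1 list lies at 591 to 693 CPM in CA3-Pyr and at no more than 32.6 CPM in GC, while the granule cell list lies higher in GC at each age.

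At equal depth, CA3 and CA1 genes were rarely found in the same cell. With each cell thinned to 1000 UMIs, so that depth did not set the share, 159 of the 486 juvenile CA3-Pyr cells had UMIs of 2 or more CA3 genes (32.7%, exact 95% interval 28.6 to 37.1%) and 94 had UMIs of 2 or more CA1 genes (19.3%, 15.9 to 23.1%). At that depth 1 cell had both and 234 had neither. At 2000 UMIs a cell, 0 of 445 cells had both, and without thinning 66 of 486 did, 37.5% of the cells with CA1 genes and 19.4% of those with CA3 genes. At 1000 UMIs a cell, 2.17% of juvenile GC and 7.07% of juvenile GABA neurons had UMIs of 2 or more CA3 genes. For 2 or more CA1 genes the shares were 0.0537% and 3.03%. Granule cells are the reference here, since GABA neurons held some listed genes themselves, with Mpped1 at 627, 607 and 272 CPM. The median depth before thinning was 2212 to 5680 UMIs in juvenile GC and 3294 to 9289 UMIs in juvenile GABA neurons. Cells with 2 or more CA1 genes numbered 48 of 201 at P18, 32 of 179 at P19, 14 of 106 at P23, 4 of 12 at P120 and 7 of 33 at P132. They were thus found at each age and in each mouse line. Shares for CA2 genes (2.06%, GC 4.24%) and mossy cell genes (1.44%, GC 0.0537%) were smaller, and the CA2 share lay under that of GC. The CA2 list summed to 2299 to 3223 CPM in juvenile GC, most of it from Pcp4, and to 392 to 741 CPM in juvenile CA3-Pyr. The CA2 shares therefore do not compare the other CA2 genes between the classes.

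**Figure D2:**
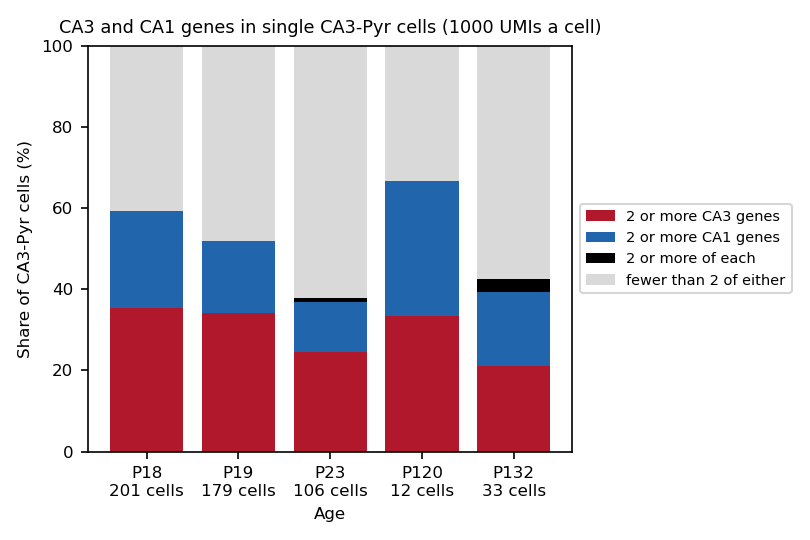
Share of CA3-Pyr cells (percent, 1 bar per age) with UMIs of 2 or more CA3 genes only, CA1 genes only, both or neither, after thinning each cell to 1000 UMIs. Cells with both number 1 at P23 and 1 at P132, and the CA1 part is present at each of the 5 ages.

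The 486 juvenile cells were divided without reference to the lists, by Ward clustering of their expression centred per age, and 1 division followed the CA1 genes. With 4 groups, 116 cells had the CA1 list at 2646 CPM, beside 36.2 to 223 CPM in the other groups, and the CA3 list at 154 CPM, beside 1404 to 1934 CPM. Their 8 leading genes were Pou3f1, Wfs1, Bcl11b, Igfbp4, Fibcd1, Pantr1, Arhgap12 and Mpped1. Pou3f1 stood at 407 CPM in these cells and 7.43 CPM in the rest, Wfs1 at 708 and 28.6 CPM, Mpped1 at 867 and 90.2 CPM, and Bcl11b (a zinc finger transcription factor) at 698 and 49.2 CPM. All 7 CA1 genes were detected, as they also were in a group of 236 cells. In the 116 cells 4 CA1 genes were among the 10 leading genes, beside 0 in each other group. For this the 116 cells are called CA1-like, although the annotation names them CA3-Pyr. Neurod6 stood at 917 CPM in them, beside 184 to 906 CPM in the other groups. Nr3c2 stood at 183 CPM in them, beside 17.8 to 156 CPM in the other groups. Elavl2, by contrast, stood at 56.0 CPM and Mndal had no UMI. They held 30.3% of the CA3-Pyr cells of P18, 20.7% of P19 and 16.98% of P23, and the 116-cell group was of the same size with 3 or 6 groups. Of the 116 cells, 82 were also among the 94 found by thinning.

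With 6 groups, the rest divided further. A group of 115 cells (47, 62 and 6 from P18, P19 and P23), led by Rph3a, Prkcd, Ifi203, Cyp26b1, Kctd4, Trps1, Mndal and Nptx1, had the highest sum of CA3 genes, 2315 CPM. Mndal (69.0 CPM) and Ifi203 (80.2 CPM) were above their level in the other 371 cells, 12.1 and 11.2 CPM. A group of 57 cells, 44 of them from P18, had among its leading genes St18 (a zinc finger factor), Htr2c (a serotonin receptor), Prss23, Fam107a, Kl, Cacng5 and Necab2. It carried the CA2 list at 1611 CPM, beside 148 to 679 CPM in the other groups, and the CA3 list at 2284 CPM. Pcp4 (1330 CPM), Rgs14 (118 CPM), Amigo2 (79.9 CPM) and Cacng5 (77.7 CPM) were each highest in this group. It also carried the oligodendrocyte list at 1068 CPM, and since only 1 CA2 gene was among its 10 leading genes it was left unnamed.

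A group of 64 cells, 35 of them from P23, was led by Mef2c (a MADS-box transcription factor), Tshz2, Calb2, Calb1 (calbindin), Tnnc1, Necab1 (a neuronal calcium-binding protein), Cux2 and Dcn. Mef2c stood at 2812 CPM in it and 72.7 CPM in the other cells, Calb2 at 432 and 24.2 CPM, and Necab1 at 208 and 8.43 CPM. Neurod6 was low in it (180 CPM) and the CA3 and CA1 lists were equal (both 689 CPM). Its leading genes belong to no single list, so it has no name here. The levels were not even over the ages, with Mef2c at 4271 CPM in its P23 cells and 222 CPM in its P18 cells, and Calb2 at 157 and 1838 CPM. A group of 83 cells had a median of 2252 UMIs, against 11960 UMIs in the group led by Rph3a, and was led by Npy, Hist1h2al and Rnaseh2a. Npy had a UMI in only 3.61% of these cells. Hist1h2al is annotated as a pseudogene with 81.9% of its 31-base stretches shared, so its value is uncertain. A group of 51 cells came almost wholly from P19 (46 cells), was led by Nmb, mt-Nd4l, Kcng1 and Clstn3, and had 31.7% of its UMIs from mitochondrial genes, beside 6.21 to 11.5% in the other groups. Groups were drawn from the same cells, so their genes are a description with no test.

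**Figure D3:**
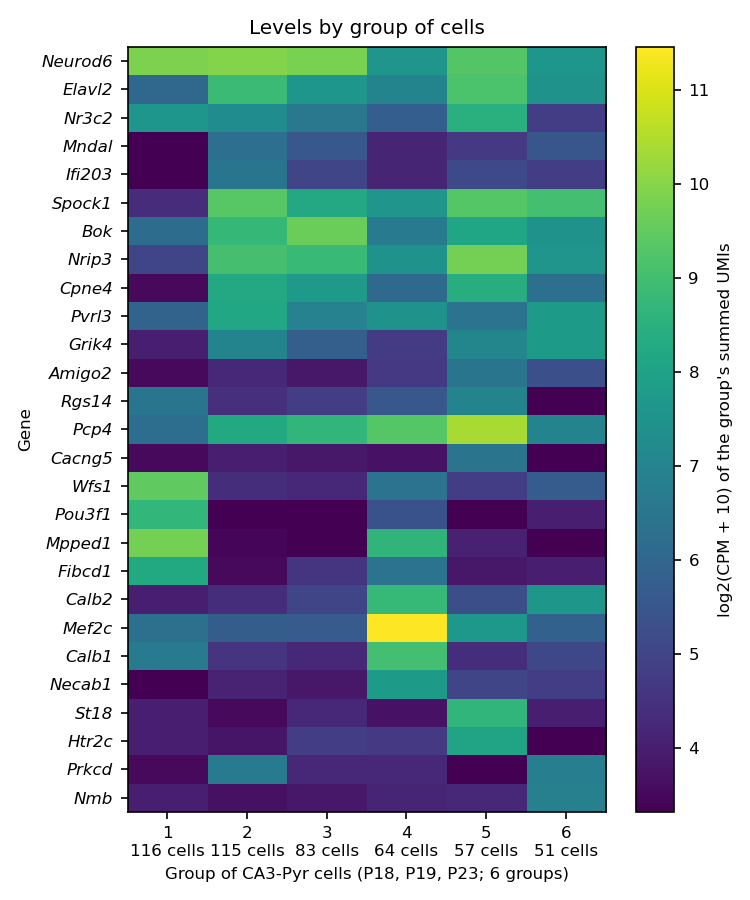
Level of 27 genes in 6 groups of the 486 juvenile CA3-Pyr cells, as log2(CPM + 10) of the summed UMIs of each group (colour). Group 1 is high in Wfs1, Pou3f1, Mpped1 and Fibcd1 and low in Spock1, Cpne4 and Elavl2, and Mef2c is highest in group 4.

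CA3-Pyr cells were next compared with granule cells of the same ages and libraries, the neurons whose axons they receive. A gene was counted where it had 50 CPM or more in the higher class and differed by 2-fold or more at each of P18, P19 and P23, on the log2(CPM + 10) scale, which understates the difference of low genes. Of 4307 genes, 250 were higher in CA3-Pyr (5.8%) and 118 lower (2.74%). The authors drew the clusters on the same cells, so these counts are a description. Neurod6 had a log2 ratio of 4.97 ± 0.14 (SD, n = 3 ages). Sv2b had 793, 672 and 323 CPM at the 3 ages against 6.78, 4.16 and 4.05 CPM in GC, a log2 ratio of 5.25 ± 0.59 (SD, n = 3 ages). Cpe, the carboxypeptidase that trims neuropeptide precursors, had 3306, 3815 and 1486 CPM against 204, 246 and 180 CPM. The ages did not overlap between the classes for any of these, which is largely built in, since they were picked for large ratios at each age.

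The 15 genes furthest above GC at the age where they differed least also included Dkk3 (a Wnt modulator), Mpped1, Spock1, Gap43 (a growth cone protein), Pvrl3, Trps1, Elavl4, Runx1t1, Rasgrp1 (an activator of Ras), Hapln4 (a link protein of perineuronal matrix), Elavl2 and Tmem178b, with mean log2 ratios of 3.17 to 4.35. Pvrl3 had nearly the same ratio at each age, 3.50 ± 0.05 (SD, n = 3 ages). Mpped1 is also a CA1 gene, and its level here is a mixture of the 867 CPM of the CA1-like cells and the 90.2 CPM of the others. Without cells of 2 or more CA1 genes after thinning, 325 of the 368 genes counted either way were counted again. That setting left out only 82 of the 116 CA1-like cells, so it does not show the counts without them. On the lower side were Prox1 (the homeobox factor of granule cells), its antisense gene Prox1os, Dock10, Fam163b, Ahcyl2, Stxbp6, C1ql2 (a C1q-like protein secreted by mossy fibres), Gad1 (glutamate decarboxylase), Plekha2 and Rfx3. Prox1 had 21.4, 18.2 and 10.5 CPM against 569, 610 and 386 CPM, a log2 ratio of -4.31 ± 0.13 (SD, n = 3 ages). Gad1 had 5.77, 9.09 and 3.14 CPM against 89.7, 110 and 86.5 CPM. Whether the counts used strand is not given in the sources used here, so Prox1 and Prox1os may share reads.

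**Figure D4:**
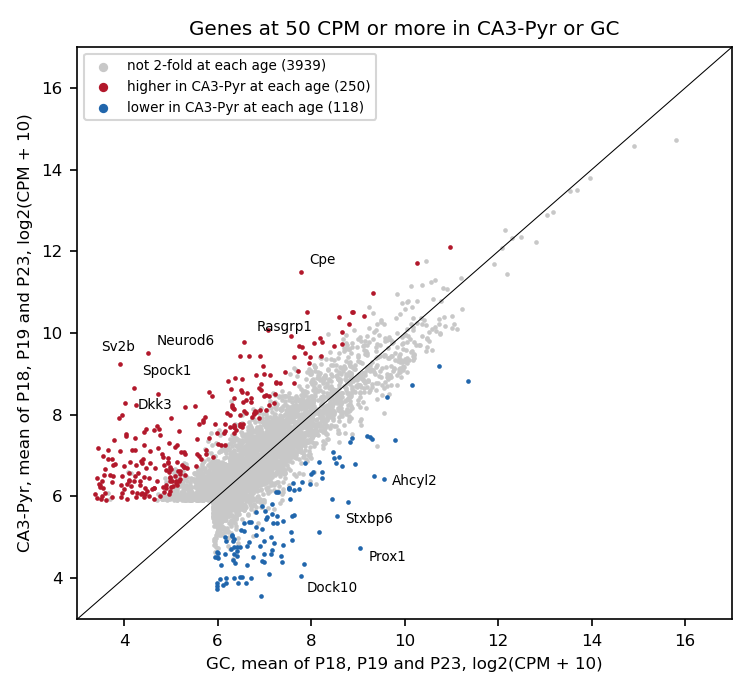
Mean level over P18, P19 and P23 in CA3-Pyr against GC, log2(CPM + 10), for the 4307 genes at 50 CPM or more in either class, 1 point per gene. The 250 genes 2-fold higher at each age (red) include Neurod6, Sv2b and Cpe, and the 118 lower (blue) include Prox1 and Dock10.

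Of 19 synaptic vesicle and release genes at 50 CPM, 8 were higher in CA3-Pyr and 0 lower, with a median log2 ratio of 1.25 against 0.04 over all 4307 genes. They were Slc17a7 (the vesicular glutamate transporter VGLUT1), Snap25, Syt1 (synaptotagmin), Syp (synaptophysin), Stx1a, Cplx1, Sv2b and Bsn (bassoon). Slc17a7 had 1912, 2756 and 1323 CPM against 594, 730 and 574 CPM in GC. Cplx2 did not follow Cplx1, with 1058, 1235 and 873 CPM against 1377, 1964 and 1496 CPM. Sv2c, the third SV2 gene, had 0.825, 1.51 and 2.09 CPM against 32.8, 27.4 and 22.9 CPM and was under the level filter. For this list and those below, the shares over all 4307 genes are 5.8% higher and 2.74% lower. At such shares a short list may hold no counted gene and still be like all genes.

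Receptor genes had lower median ratios than the vesicle genes. Of 18 glutamate receptor genes and auxiliary subunits at 50 CPM, 3 were higher and 1 lower, with a median log2 ratio of 0.34. The higher ones were Grik4, Neto2 (an auxiliary subunit of kainate receptors) and Cacng2 (stargazin), and the lower one was Cnih3 (a cornichon). Neto2 had 67.6, 143 and 93.1 CPM against 4.88, 2.42 and 4.37 CPM in GC. Grik2, which forms kainate receptors with Grik4, had 43.7, 47.7 and 29.3 CPM against 42.0, 83.5 and 59.9 CPM, under 2-fold at each age on the log2(CPM + 10) scale. The AMPA receptor gene Gria1 and the NMDA receptor gene Grin2b lay within 0.46 log2 units of GC at each age. None of 9 GABA receptor genes at 50 CPM was counted in either direction (median log2 ratio 0.23).

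Of 19 mossy fibre synapse genes at 50 CPM, 3 were higher, 3 lower and the other 13 counted in neither direction, with a median log2 ratio of 0.40. The higher ones were Pvrl3, Nptxr (the neuronal pentraxin receptor) and Nrxn3 (a neurexin). Nrxn3 had 539, 475 and 327 CPM against 52.3, 86.2 and 54.4 CPM in GC. The lower ones were C1ql2, C1ql3 and Lrrtm4 (a postsynaptic adhesion protein of granule cells), of which C1ql3 had 58.6, 61.3 and 123 CPM against 595, 704 and 632 CPM. Gpr158, an orphan receptor of the mossy fibre synapse on CA3 cells, had 195, 161 and 86.9 CPM against 49.6, 56.4 and 51.9 CPM and was not 2-fold higher at P23.

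Of 27 voltage-gated channel genes at 50 CPM, 4 were higher and 3 lower. Kcnc2 (a Kv3 potassium channel) had 121, 168 and 60.7 CPM against 1.36, 2.42 and 1.56 CPM in GC. Kcnq5 (an M-current channel) had 212, 114 and 62.8 CPM against 9.21, 2.77 and 3.12 CPM. The lower ones were Scn3a, Kcnc4 and Cacna1h. Each of these 5 named genes was on the same side of GC at all 3 juvenile ages and also at P120 and P132.

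Among 15 calcium-binding and calcium signalling genes at 50 CPM, 4 were higher and 0 lower. They were Hpca (hippocalcin), Camk4, Camk2d and Calb2. Hpca had 1336, 1536 and 1109 CPM against 276, 461 and 397 CPM in GC, while Camk2a differed from GC by under 2-fold at each age. Calb1, a gene of granule cells, had 26.4, 31.1 and 361 CPM in CA3-Pyr, the last of these at P23, against 750, 541 and 730 CPM. Of 21 transcription factor genes, 3 were higher (Neurod6, Bcl11a and Satb1) and 3 lower (Prox1, Bhlhe22 and Bcl11b), with a median log2 ratio of -0.32. Of 4 ELAV genes, Elavl2 and Elavl4 were higher, and Elavl1 and Elavl3 were counted in neither direction.

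Of 14 neuron maturation genes at 50 CPM, 5 were higher (Tubb3, Stmn2, Snap25, Syt1 and Snhg11) and 0 lower. Of 8 neurotrophin genes, Vgf (a secreted neuropeptide precursor) and Sorcs3 were higher and Ntf3 was lower, and Bdnf (brain-derived neurotrophic factor) was under 2-fold at each age. Of 7 corticosteroid genes, Nr3c2 and Nr3c1 (the glucocorticoid receptor) included, none was counted. Of 6 immediate early and heat shock genes, Egr1 was higher and Junb, Jun and Btg2 were lower. Egr1 had 186, 167 and 274 CPM against 55.3, 46.1 and 81.9 CPM in GC, and Jun had 54.4, 50.7 and 50.2 CPM against 281, 278 and 451 CPM. These genes are known to respond to dissociation, and their part in the differences was not tested. None of 9 mitochondrially encoded genes was counted.

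When the bar was raised to every other cluster with 20 or more cells (12 at P18, 15 at P19, 14 at P23), 22 of 3809 genes were 2-fold or more higher in CA3-Pyr at each age (0.578%). Among the 15 furthest ahead were Sv2b, Hs3st4, Rasgrp1, Wfs1, Pde1a, Chgb, Hpca, Camk1d, Nptxr, Sh3gl2, Lingo1, Slc17a7, Cabp7 and Prkcb. They include a protein kinase C gene (Prkcb), calcium-regulated enzymes (Pde1a and Camk1d), a heparan sulfate sulfotransferase (Hs3st4) and a granin (Chgb). Sv2b was followed most closely by Immature-GC at P18 (31.9 CPM), GABA at P19 (34.2 CPM) and Immature-Pyr at P23 (36.2 CPM). Hs3st4 had 204, 203 and 97.3 CPM, and the closest cluster 6.22, 11.6 and 6.87 CPM. Wfs1 is also a CA1 gene, at 708 CPM in the CA1-like cells and 28.6 CPM in the other juvenile cells. The closest cluster for it had 20.1, 13.6 and 43.6 CPM, and the comparison was not repeated without the CA1-like cells. The closest cluster was GC-juv or GC-adult for Hpca, Nptxr, Chgb and Slc17a7 at each age. Neurod6, Elavl2, Nr3c2 and Mndal were not among the 22. With clusters of 50 or more cells only, the count was 56.

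Immature-Pyr cells of E16.5, P0 and P5 were the other pyramidal cluster, and here class and age cannot be told apart. Pooled juvenile CA3-Pyr cells were higher in 789 of 4420 genes (17.9%) and lower in 434 (9.82%), by 2-fold or more against each of these ages. Chgb had 1004 CPM against 28.4, 44.9 and 79.6 CPM, and Scn2b, a sodium channel beta subunit, had 433 CPM against 3.91, 8.65 and 25.9 CPM. Rasgrp1, Ano3, Tanc1, Hapln4, Ddn (dendrin), Lynx1 and Cntnap1 were also among the 10 furthest ahead. The 10 lowest were Cd24a, Tubb2b, Gm8730, Sox11, Dpysl3, Csrp2, Rprm, Ddah2, Dpysl5 and Marcksl1, among them the neuroblast transcription factor Sox11 and genes of growth cone and cytoskeleton proteins. Cd24a had 8.60 CPM against 1377, 1564 and 1289 CPM. Gm8730 is annotated as a pseudogene with 88.3% of its 31-base stretches shared, so its value is uncertain.

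At P23 both clusters were present, with 106 CA3-Pyr and 51 Immature-Pyr cells. There, 507 of the 789 higher genes and 229 of the 434 lower genes differed by 2-fold or more in the same direction (64.3% and 52.8%). Over all 4420 genes, 728 were higher and 397 lower (8.98%) by that measure at P23. The genes were chosen with sums that include the P23 cells, so some of this overlap is built in. Chgb, Rasgrp1, Cd24a, Sox11 and Dpysl3 were among them, with Immature-Pyr at 87.2, 8.51, 1493, 853 and 1078 CPM.

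Change with age within CA3-Pyr was tested between the 3 juvenile and the 2 adult sums, with the adult sums resting on 12 and 33 cells. No gene of 9258 passed edgeR's quasi-likelihood test at a Benjamini-Hochberg adjusted p of 0.05 (0%), and 543 had an unadjusted p under 0.05. DESeq2 called 9 genes, of which Adcyap1 (the neuropeptide PACAP), Agap2, Psmc3ip, PISD, Slc35f1, Mt1 (metallothionein), Gm8730 and Col12a1 were higher in adults and Ubb (a ubiquitin gene, uncertain because 50.3% of its 31-base stretches are shared) lower. Adcyap1 had 18.1, 7.57, 12.6, 145 and 72.0 CPM in the order of age, and stood at no more than 0.542 CPM in GC. PISD had 94.0, 196, 114, 1026 and 365 CPM, and its levels in GC, 105, 297, 122, 912 and 725 CPM, also stood apart by stage. The same held in GC for Ubb, Agap2, Psmc3ip and Gm8730, whereas the stages overlapped for Mt1 in GC. None of 22 glutamate receptor genes tested (median log2 change 0.41), 11 GABA receptor genes (0.31), 21 synaptic vesicle genes (-0.02) or 7 CA3 genes (0.25) was called by edgeR, beside a median of -0.04 over all genes. Line, sort and stage cannot be told apart in this contrast. Without P18 edgeR called 5 genes and without P19 it called 9, and it called 0 without P23, P120 or P132.

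The change with stage in CA3-Pyr was then set against that in GC of the same libraries, which have the same line and sort. In 7 of 10673 genes (0.0656%) the 2 changes differed by edgeR's interaction test with age as a block, 6 of them more positive in CA3-Pyr (0.0562%) and 1 more negative (0.00937%). In all, 708 genes had an unadjusted p under 0.05. Calb2 had 157, 53.0, 90.0, 96.5 and 617 CPM in CA3-Pyr and 6.78, 14.2, 6.08, 0 and 1.48 CPM in GC. The P120 value rests on 8 UMIs and lies within the juvenile range, and the high value is that of P132, where the 2 libraries gave 629 and 604 CPM. The difference of the changes was 4.99 ± 0.73 on the log2 scale (SE, n = 5 ages), with an adjusted p of 0.00425 (edgeR).

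Necab1 was likewise high at P132 alone, with 48.7, 24.2, 69.1, 36.2 and 320 CPM against 37.9, 31.5, 21.4, 5.34 and 14.6 CPM in GC. The P120 value rests on 3 UMIs. The difference was 3.57 ± 0.52 (SE, n = 5 ages; edgeR adjusted p = 0.00425), and 1.98 without P132 (adjusted p = 0.768). Slc35f1, of the solute carrier family, had 17.3, 32.6, 11.5, 84.5 and 162 CPM against 17.1, 19.7, 12.9, 10.7 and 9.30 CPM, and here both adult CA3-Pyr values exceeded each juvenile one. The P120 value of Slc35f1 rests on 7 UMIs. Its difference was 3.53 ± 0.49 (SE, n = 5 ages; edgeR adjusted p = 0.00425). It was 2.645 without cells of more than 2 times the median UMIs (edgeR adjusted p = 0.523), and 2.56 without P132. Snhg11, a neuronal RNA gene, had 850, 1413, 929, 2184 and 1080 CPM, with the 2 stages overlapping, while GC held 113, 185 and 79.7 CPM in juveniles and 64.0 and 15.6 CPM in adults. Its difference of 2.48 ± 0.38 (SE, n = 5 ages; edgeR adjusted p = 0.00490) thus goes with a lower adult level in GC. Ntm (neurotrimin, an adhesion molecule) had 114, 173, 259, 109 and 126 CPM, and GC went from 10.8, 12.1 and 11.2 CPM to 42.7 and 30.7 CPM. Its difference was -2.27 ± 0.42 (SE, n = 5 ages; edgeR adjusted p = 0.0409).

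Nr2f2 (the nuclear receptor COUP-TFII) and Col12a1 (a collagen) also passed, and are named after their values were seen because the count is small. Nr2f2 had 50.3, 41.7, 19.9, 24.1 and 369 CPM, with 376 and 362 CPM in the P132 libraries, and Col12a1 had 6.60, 15.9, 8.37, 48.3 and 94.5 CPM. The mossy cell list, which holds Calb2, summed to 222, 170, 154, 338 and 761 CPM in CA3-Pyr and to 29.5 to 48.0 CPM in GC. Drd2 and Glp1r of that list were at 0 at each age, and the part of such cells in the result was not tested. In juvenile CA3-Pyr cells, Calb2, Necab1 and Nr2f2 were highest in the 64-cell group led by Mef2c, with Nr2f2 at 103 CPM there and at no more than 33.3 CPM in the other groups. Mef2c and Calb1, also leading genes of that group, stood at 121 and 158 CPM and at 12.1 and 40.5 CPM in the P120 and P132 sums. A sum over cells does not tell more cells of a kind from more RNA per cell. Without P132 the test called 0 genes, without P120 2, without P19 14 and without P23 16, and without cells of more than 2 times the median UMIs it called 2.

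**Figure D5:**
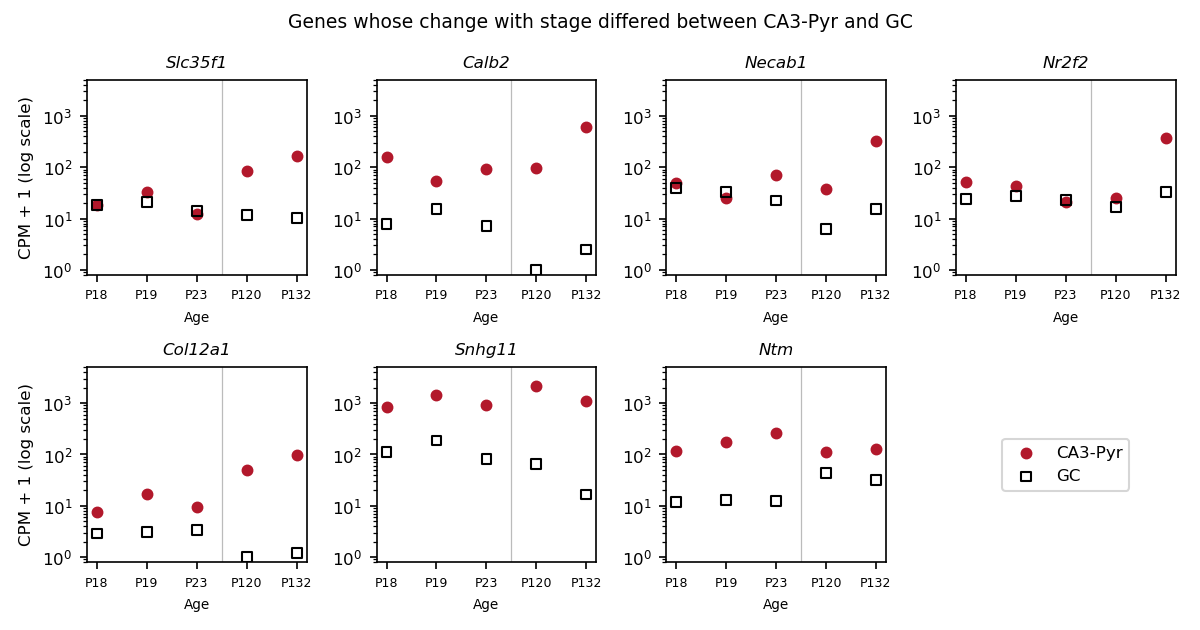
Level (CPM + 1, log scale) of the 7 genes whose change with stage differed between CA3-Pyr (circles) and GC (squares), by age, 1 point per age, with a line between juvenile and adult ages. For Calb2, Necab1 and Nr2f2 the CA3-Pyr point at P132 stands above the other 4 ages, and for Snhg11 and Ntm the GC points move between stages.

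The last comparison set P19 against P18 and P23, the single juvenile age of C57Bl/6 females against CD-1 males, so line, sex and age cannot be told apart. Of 9973 genes, 17 were higher (0.17%) and 44 lower (0.441%) at P19, 61 in all (0.612%) by edgeR's test, in which the lone age is assumed to vary like the others. With 1 pool against 2, the spread between pools is known only from P18 and P23. The count was 24 with DESeq2's size factor method within edgeR and 11 with DESeq2. Xist, the RNA of the inactive X chromosome, had 6.60, 745 and 3.14 CPM at P18, P19 and P23, a log2 difference of 7.19 ± 0.67 (SE, n = 3 ages; edgeR adjusted p = 1.6e-22). Ddx3y, a gene of the Y chromosome, had 93.2, 0 and 91.1 CPM, at least 40.6-fold lower against a floor of 3 UMIs in the P19 sum. Both go with the sexes that the labels give.

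Other genes named by size were Rpl29 (a ribosomal protein gene, uncertain with 44.5% of its 31-base stretches shared; 28.9, 279 and 44.0 CPM), Igf2bp3 (an RNA-binding protein; 18.97, 128 and 45.0 CPM) and Cachd1 (34.6, 124 and 31.4 CPM), all higher at P19. Igf2bp3 and Cachd1 did not pass with the other scaling (adjusted p of 0.158 and 0.138, edgeR), nor, for Cachd1, without the cells of 2 or more CA1 genes (0.107, log2 difference 1.88 against 1.92 with them). Lower at P19 were Gm5900, Gm10260, Gm10709 and Gm8797, each sharing 78.2 to 94.7% of its 31-base stretches with another gene and therefore uncertain, and Rnf121 (280, 18.2 and 110 CPM). Most of these showed the same order of ages in GC. Rpl29 had 41.7, 414 and 47.7 CPM in GC, Gm10260 had 432, 3.46 and 450 CPM, and Rnf121 had 654, 20.4 and 212 CPM. A test of whether the P19 difference itself differed between CA3-Pyr and GC called 0 of 11584 genes (edgeR; 329 had an unadjusted p under 0.05, and no other tool was run).

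Mef2c and St18 were also lower at P19. Mef2c had 117, 61.3 and 1868 CPM in CA3-Pyr against 1026, 732 and 715 CPM in GC, and St18 had 129, 6.06 and 28.3 CPM against 68.3, 63.7 and 51.8 CPM. The same contrast in GC gave Mef2c an adjusted p of 0.886 (edgeR), and the difference between the classes did not pass for either gene (adjusted p of 1 for Mef2c and 0.965 for St18, edgeR). For Mef2c the high value is that of P23, and for St18 that of P18. These are the leading genes of the groups of cells described above, of which 35 of 64 cells came from P23 and 44 of 57 from P18. Under the other scaling Mef2c had an adjusted p of 0.2002 and St18 of 0.0483, and DESeq2 itself gave 0.9999 and 0.151. Cells with over 20% mitochondrial UMIs made up 2.49% of CA3-Pyr cells at P18, 26.8% at P19 and 2.83% at P23, and 3.94% of GC at P19. Without them 21 genes were called, 8 higher and 13 lower, and neither Mef2c (adjusted p = 0.494, edgeR) nor St18 (0.138) was among them, although their log2 differences were as large without these cells (-4.02 against -3.99, and -3.77 against -3.68).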

How the data were processed

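The deposited count table holds whole-number UMI counts per gene and cell (27933 genes, 24185 cells, 11 libraries), made by the authors with Cell Ranger on mm10, per the submitters' processing notes, and the kit was 10X Chromium version 2, per the labels' protocols. Versions, annotation, cell filters, doublet removal and clustering method are not given in the sources used here. Age and cluster of each cell came from the deposited annotation, in which 31 empty lines were skipped. Genes, lists and members were chosen with earlier results of these data known. UMIs were summed over the cells of a cluster and age with 10 or more cells and scaled to CPM. No doublet caller was run. A variant without cells above 2 times the median UMI count was run instead.

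Tests used edgeR 4.0.16 (TMM, filterByExpr, glmQLFit and glmQLFTest, two-sided, R 4.3.3) with Benjamini-Hochberg adjustment over all genes tested, called under 0.05. DESeq2 1.42.0 was an alternative. The script was tested on simulated data. Each standard error was derived from the fitted change and its quasi-likelihood F statistic. Other comparisons used ratios of log2(CPM + 10), at 50 CPM or more. Genes were named by rule: in tests, called genes with a mean of 50 CPM or more whose groups did not overlap, the 8 with the largest change each way; against GC the 15 higher and 10 lower, against every other cluster 15 and against Immature-Pyr 10 each way with the largest smallest ratio; in groups of cells the 8 leading genes. List members may be named too. Some genes that these rules pick are not reported here. Cell groups came from Ward clustering on 10 principal components of 1000 variable genes. Gene positions and shared 31-base stretches are from the GENCODE annotation of GRCm38, and promoters from RefSeq. Each age is 1 pool of animals, and a total of 82865 to 1320649 UMIs limits what low genes can show.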

Additional observations from a re-analysis of the deposited data

Results flagged for a closer look

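In 7 genes the change between juvenile and adult ages differed between CA3-Pyr and GC by the interaction test (edgeR, adjusted over 10673 genes), with sums of 5 ages in each class. The differences on the log2 scale were 4.99 for Calb2, 6.10 for Col12a1, 3.57 for Necab1, 2.56 for Nr2f2, 3.53 for Slc35f1 and 2.48 for Snhg11, all more positive in CA3-Pyr, and -2.27 for Ntm. The adjusted p was 0.00425 for Calb2, Necab1 and Slc35f1, 0.00490 for Snhg11, 0.0202 for Nr2f2 and 0.0409 for Ntm and Col12a1. DESeq2 gave 0.998 for Nr2f2 and 0.0679 for Ntm, and kept the other 5 under 0.05. With GABA neurons in place of GC, only Calb2 of the 7 was called (3.98, adjusted p = 0.0302).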

How the results depend on the processing

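No paired analysis was possible because the replicate numbers in the sample titles tell apart samples of 1 age and cluster and link none across ages. Age is already a block in the comparison of CA3-Pyr with GC. Of the values under alternative settings, 38 of the main results stayed within their spread or within 1.5 times and 31 moved, and of the named genes' values 127 stayed called, 41 did not and 8 changed sign. The cause was not tested for any of them, beyond fewer genes, cells or ages in the fit. Adult against juvenile, with 0 calls, gave 9 with DESeq2, 32 with no filter, 6 with the P132 libraries as separate sums and 0 to 9 leaving out 1 age. The change with stage against GC, with 7 calls, gave 26 with no filter, 2 without cells of high UMI count, 3 with GABA in place of GC, 2 with at least 20 cells per age and 0 to 16 leaving out 1 age. P19 against the other juvenile ages, with 61 calls, gave 24 with RLE scaling, 11 with DESeq2, 20 with 20 UMIs in each sum of 1 side, 21 without cells of high mitochondrial share (chosen after seeing the data) and 0 for the interaction with GC. Leaving out P18 or P23 there could not be fitted. Sign changes were Snhg11 with GABA in place of GC (-0.20) and, in the interaction with GC, Xist (-2.40), Rpl29 (-0.14), Cachd1 (-0.69), Ddx3y (0.0995), Gm10709 (1.01), Gm8797 (0.972) and Rnf121 (1.04). The 368 genes counted against GC became 326 to 525 over all alternatives, 404 to 525 of them leaving out 1 age, and the 22 above every other cluster became 56 with clusters of 50 or more cells. Among neuronal clusters alone the CA3-Pyr share was 9.25% at P18, 12.3% at P19, 6.52% at P23, 5.53% at P120 and 1.34% at P132. Not thinned, 70.0% of juvenile cells had 2 or more CA3 genes, 36.2% CA1 genes, 16.3% CA2 genes and 7.82% mossy cell genes, and thinned to 2000 UMIs 51.2%, 28.3% and 6.07% for the first 3 lists. Depth limits most the adult sums of 12 and 33 cells.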

Other observations

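The 1 cell of P5 annotated CA3-Pyr had 5145 UMIs, with 5 of Neurod6 and none of Elavl2, Nr3c2 or Mndal. It entered no comparison. In the adult CA3-Pyr cells, which entered no grouping, 4 of 12 cells at P120 and 7 of 33 at P132 had 2 or more CA1 genes after thinning to 1000 UMIs. Hapln4, the link protein of perineuronal matrix, had no more than 1.71 CPM in Immature-Pyr of E16.5, P0 and P5, and 88.6 to 200.4 CPM in juvenile CA3-Pyr.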
